A study of Rattus norvegicus with 38 samples.

Results

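Blood leukocyte RNA of rats killed 12 h after a single intraperitoneal dose of 15 mg/kg methyl parathion was compared with that of vehicle rats, which had received vegetable oil alone. The comparison was chosen by sample title and held 4 methyl parathion rats and 4 vehicle rats, which were 8 of the 38 rats of the series. All were male CDF Fisher 344 rats of about 4 months, 1 array per rat, killed by focused microwave irradiation of the head and bled from the heart. The series also held rats killed 4, 24 and 168 h after methyl parathion (4, 4 and 3 rats), and rats given acetaminophen at 1200 mg/kg, a pain reliever toxic to the liver in overdose, with vehicle rats of their own. Every vehicle rat was killed 24 h after its injection. In the comparison at 12 h, the treatment and the hour of killing therefore cannot be told apart.

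Methyl parathion is an organophosphate insecticide. Its oxygen analogue, formed in the liver, blocks acetylcholinesterase, so that acetylcholine builds up at synapses and neuromuscular junctions. Leukocytes carry receptors for acetylcholine, catecholamines and glucocorticoids, and stress hormones are known to move lymphocytes out of the blood and neutrophils into it. In RNA from whole leukocyte samples, fewer cells of a type and less RNA per cell cannot be told apart. The leukocytes had been caught on a filter and their RNA depleted of globin transcripts, and array signals are given below as log2 values.

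The arrays of the comparison differed in brightness before normalization. Median raw signal was 206.1 to 254.6 in the methyl parathion rats and 264.9 to 389.6 in the vehicle rats, without overlap. Probes above background, defined as a signal-to-noise ratio of at least 3, made up 40.25 to 43.63% of all probes in the methyl parathion rats and 40.22 to 51.7% in the vehicle rats. The 8 arrays correlated at 0.9336 to 0.972 across probes. Of the probes tested, 326 were above background on at least 3 vehicle arrays and on no methyl parathion array, and 17 were so the other way round. The part of signal strength in these results was not tested. Of the probes that passed the test below, 365 higher and 547 lower ones were above background on all 8 arrays. In the results that follow, methyl parathion rat 2 often lay near the vehicle rats, and vehicle rat 4 toward the methyl parathion rats in neutrophil genes. The labels were used as given, and whether these 2 arrays carry the right ones was not tested. For some of the gene lists below, the count with one of them left out is given too. Counts of other lists moved as well. Without methyl parathion rat 2, for instance, 6 heat shock and chaperone genes fell in place of 3, and 6 proteasome genes in place of 2. With methyl parathion rat 1 left out, no gene of these lists fell.

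Of 11405 probes tested with limma, 1087 passed at a Benjamini-Hochberg adjusted p under 0.05 (9.53%), of which 414 were higher (3.63%) and 673 lower (5.90%) in the methyl parathion rats. Of the 3158 genes tested by name, 159 rose (5.03%) and 213 fell (6.74%). The 4 methyl parathion rats lay above all 4 vehicle rats in 3.79% of the probes tested and below them in 8.17%. The median change of all tested probes was -0.08, and with each array centred on its median in place of quantile normalization it was -0.27, with 65 probes higher and 292 lower (18.2% of the calls higher, against 38.1%). The count rests on a spread estimated over all 10 groups of the series: a fit to the 8 arrays alone called 0 probes, with 2854 at an unadjusted p under 0.05. It also rests on single rats, with 328 calls without methyl parathion rat 1, 403 without rat 4, 532 without rat 3 and 1954 without rat 2, and 502 and 525 calls without vehicle rats 1 and 2. Set against the 4 vehicle rats of acetaminophen instead, the same 4 methyl parathion rats differed in 3623 of 10749 probes, 1551 higher and 2072 lower. Those vehicle rats and the vehicle rats of methyl parathion differed in 0 of 11430 probes by limma, with 1327 at an unadjusted p under 0.05 and 1141 calls when arrays were weighted by quality.

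T cell genes were lower after methyl parathion. Of 16 T cell markers tested, 12 fell (75.0%, against 6.74% of all named genes) and none rose. Their median change was -1.03, against -0.08 over all probes. The list mean, relative to the mean of the vehicle rats, was -1.39, -0.23, -1.15 and -1.23 in methyl parathion rats 1 to 4 and between -0.18 and 0.14 in the vehicle rats. Rat 2 thus stood next to the vehicle rats, while the other 3 lay well below them. The 12 genes were Cd8a, Cd8b, Cd3d, Cd247, Cd2, Cd4, Cd5, Cd6, Lat, Ccr7, Cd40lg and Icos. Leaving out methyl parathion rat 1 left 5 of them past the test, and leaving out any other of the 8 rats left 8 to 12.

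Promoter windows are shown for 2 of these genes, Cd2, an adhesion receptor of T cells, and Lat, the adaptor that the T cell receptor uses to pass on its signal. They were the only ones of the 7 with a window in RefSeq (build GRCr8, 250 bases before to 50 after the start) that held the core TGTGGT of sites for RUNX factors, which are known regulators of T cell genes. Capitals mark TGTGGT or, on the opposite strand, ACCACA.
Cd2, chr2:191412610-191412909, minus strand: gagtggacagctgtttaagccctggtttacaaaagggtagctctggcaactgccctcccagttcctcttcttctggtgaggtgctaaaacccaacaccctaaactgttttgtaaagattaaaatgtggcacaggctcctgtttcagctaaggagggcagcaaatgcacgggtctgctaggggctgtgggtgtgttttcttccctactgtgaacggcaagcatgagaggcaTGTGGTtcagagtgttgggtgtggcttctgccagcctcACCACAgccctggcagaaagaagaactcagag
Lat, chr1:190372087-190372386, minus strand: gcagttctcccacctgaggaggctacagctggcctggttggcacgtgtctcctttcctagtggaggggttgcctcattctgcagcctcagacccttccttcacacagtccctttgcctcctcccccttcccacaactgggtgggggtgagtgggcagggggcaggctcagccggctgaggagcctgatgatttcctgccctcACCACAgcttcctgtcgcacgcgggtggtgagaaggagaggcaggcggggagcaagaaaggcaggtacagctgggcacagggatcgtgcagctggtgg
Searched on both strands, TGTGGT was in 17.3% of all 33469 windows, so that 2 of 7 is a description of these genes and no more.

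Among the genes of the T cell receptor complex and its co-receptors, Cd8a, the alpha chain of the co-receptor of cytotoxic T cells, had log2 signals of 14.15, 15.15, 14.52 and 14.46 in the methyl parathion rats, against 15.72, 15.55, 15.77 and 15.43 in the vehicle rats. All 4 methyl parathion rats lay below all vehicle rats, with rat 2 the nearest. The change was -1.05 ± 0.171 (SE, n = 4 each), a 2.07-fold lower signal (adjusted p = 0.00139). Its partner chain Cd8b fell by 1.05 ± 0.229 (adjusted p = 0.00569), with methyl parathion rat 2 at 15.15 inside the vehicle range of 14.89 to 15.57. Cd4, the co-receptor of helper T cells, had 8.91, 9.28, 8.93 and 7.35 in the methyl parathion rats, against 10.43, 10.25, 10.28 and 10.03 in the vehicle rats. It lay lower in all 4 methyl parathion rats, of which 1 had it above background, and the change was -1.63 ± 0.424 (adjusted p = 0.0142). The signalling chains Cd3d and Cd247 fell by 1.01 ± 0.233 and 0.83 ± 0.201, and Lat by 0.87 ± 0.198.

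Ccr7, the chemokine receptor that guides naive T cells into lymph nodes, had log2 signals of 12.17, 13.22, 11.88 and 11.82 in the methyl parathion rats, against 13.67, 13.92, 14.32 and 13.36 in the vehicle rats. No methyl parathion rat reached the lowest vehicle rat, and the gene was 2.92-fold lower (-1.55 ± 0.292, adjusted p = 0.00215). S1pr1, the sphingosine 1-phosphate receptor that lets lymphocytes leave lymph nodes, had 11.77, 13.51, 11.95 and 11.72, against 14.11, 14.15, 14.33 and 13.56. The groups did not overlap, though methyl parathion rat 2 missed the lowest vehicle rat narrowly, and the change was -1.80 ± 0.337 (adjusted p = 0.00209). Il2ra, the alpha chain of the interleukin 2 receptor, was at 7.13, 8.79, 7.34 and 7.29 in the methyl parathion rats, none above background, against 9.45 to 9.68 in the vehicle rats. It was lower by an estimated 3.87-fold (adjusted p = 0.00245), but no methyl parathion array measured it, so that the size is uncertain. On each such array the estimate takes the higher of the probe's own signal and the lowest signal of any probe above background. Dpp4, a surface peptidase also known as a T cell marker, fell by 1.79 ± 0.474 (adjusted p = 0.0153), and Gimap6, a GTPase of lymphocytes, by 1.56 ± 0.478 (adjusted p = 0.0339). S1pr1, Il2ra, Dpp4 and Gimap6 are not on the list of T cell markers. They were named because they passed with large falls and no overlap, so that they are no separate evidence on T cells. The 4 T cell markers that did not pass were Lef1 (-1.14), Gata3 (-0.61), Zap70 (-0.34) and Thy1 (-0.10).

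**Figure D1:**
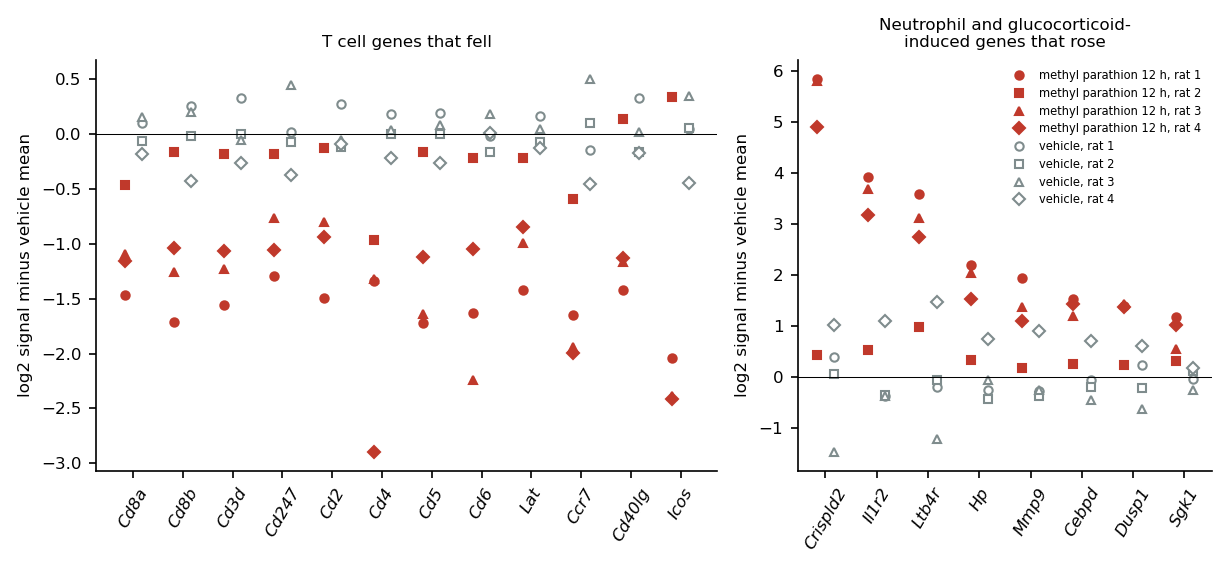
Log2 signal of each rat minus the mean of the 4 vehicle rats, for the 12 T cell markers that fell (left) and 8 neutrophil or glucocorticoid-induced genes that rose (right); filled red symbols are methyl parathion rats at 12 h, open grey symbols vehicle rats, and the shape gives the rat number. Methyl parathion rat 2 (squares) lies nearest the vehicle rats in most genes, and vehicle rat 4 (diamonds) is the highest vehicle rat in all 8 genes on the right.

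B cell and antigen presentation genes gave 1 call, a fall (20.0% of the B cell markers, against 6.74% of all named genes). Of 5 B cell markers 1 fell, Fcer2, the low-affinity IgE receptor of B cells, which had log2 signals of 9.14, 11.11, 7.02 and 9.08 in the methyl parathion rats, against 10.81 to 11.53 in the vehicle rats. Rat 2 lay among the vehicle rats, and the change was -2.07 ± 0.619 (adjusted p = 0.0307). Only 2 of the 4 methyl parathion arrays had Fcer2 above background. With 1 rat left out, Fcer2 kept its call only where that rat was methyl parathion rat 2 or vehicle rat 4. Of 9 MHC class II genes, which present peptides to helper T cells, none passed by limma. Their median change was -0.39, and RT1-Da was nearest to the threshold at -0.69 ± 0.228 (adjusted p = 0.0507). Without methyl parathion rat 2, 3 of the 9 fell, and without vehicle rat 4, 1 fell.

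Pan-leukocyte genes, which most white cells carry, were also lower in part: 3 of 11 fell (27.3%, against 6.74% of all named genes), with a median of -0.31. Ptprc, the CD45 phosphatase, had 12.70, 12.62, 12.12 and 11.72 in the methyl parathion rats, against 13.58, 13.56, 13.46 and 13.08 in the vehicle rats. All methyl parathion rats lay lower (-1.13 ± 0.337, adjusted p = 0.0301). The tetraspanin Cd53 was lower in all 4 rats as well (-0.78 ± 0.175, adjusted p = 0.00653), and Cd48 fell by 1.01 ± 0.300 (adjusted p = 0.0295). With any of methyl parathion rats 1, 3 and 4 or vehicle rats 1 to 3 left out, 1 of the 11 fell. With methyl parathion rat 2 left out 1 rose and 5 fell, and with vehicle rat 4 left out 1 rose and 4 fell. Relative to all probes the list's median was -0.24, and 0.04 under median centring, so that its direction against the other probes flips with the scaling.

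Neutrophil genes moved the other way. Of 13 neutrophil markers tested, 5 rose (38.5%, against 5.03% of all named genes) and none fell. All 13 changes were positive, with a median of 0.60 and, under median centring, of 0.80. The list mean relative to the vehicle mean was 1.68, 0.00, 1.40 and 0.87 in methyl parathion rats 1 to 4, against -0.21, -0.27, -0.32 and 0.81 in vehicle rats 1 to 4. Methyl parathion rat 2 was at the vehicle level, and vehicle rat 4 was nearly as high as methyl parathion rat 4. Without methyl parathion rat 2, 7 markers rose, without vehicle rat 4 it was 6, and without methyl parathion rat 1 it was 3.

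Il1r2, the decoy receptor that takes up interleukin 1 and that glucocorticoids induce in neutrophils, had log2 signals of 16.81, 13.41, 16.58 and 16.07 in the methyl parathion rats, against 12.52, 12.53, 12.52 and 13.99 in the vehicle rats. The highest vehicle rat passed methyl parathion rat 2, while the other 3 methyl parathion rats were above all vehicle rats. The change was 2.83 ± 0.526, or 7.11-fold (adjusted p = 0.00209). Ltb4r, the leukotriene B4 receptor that draws neutrophils to inflamed tissue, had 12.32, 9.72, 11.85 and 11.48, against 8.54, 8.69, 7.53 and 10.20. Again rat 2 of the methyl parathion group was below vehicle rat 4, and the gene was 6.08-fold higher (2.61 ± 0.523, adjusted p = 0.00306). Hp, which encodes the haemoglobin-binding protein haptoglobin stored in neutrophil granules, rose by 1.53 ± 0.346 (adjusted p = 0.00668), the gelatinase Mmp9 by 1.14 ± 0.278 (adjusted p = 0.01) and S100a8, a calcium-binding protein abundant in neutrophils, by 0.86 ± 0.275 (adjusted p = 0.0412). Cxcr2, the main chemokine receptor of neutrophils, did not pass (0.28 ± 0.461, adjusted p = 0.739), nor did Defa5 at 0.32 and Cxcr1 at 0.54.

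Of 14 genes known to be induced by glucocorticoids, 6 rose (42.9%, against 5.03% of all named genes) and none fell. Their median change was 0.65. The list mean was 1.33, 0.23, 1.12 and 1.09 above the vehicle mean in methyl parathion rats 1 to 4, and between -0.20 and 0.36 around it in the vehicle rats. Rats 1, 3 and 4 were above all vehicle rats, and rat 2 was below vehicle rat 4. Crispld2, a secreted protein that glucocorticoids raise, had log2 signals of 14.29, 8.88, 14.24 and 13.34 in the methyl parathion rats, against 8.83, 8.50, 6.97 and 9.47 in the vehicle rats. It was above background in 3 of 4 methyl parathion rats and 2 of 4 vehicle rats, and its change was 4.25 ± 0.837, or 19.0-fold (adjusted p = 0.00277). Sgk1, a kinase induced by serum and glucocorticoids, was higher in every methyl parathion rat, at 13.62, 12.75, 12.99 and 13.46, against 12.40, 12.55, 12.19 and 12.62 (0.77 ± 0.179, adjusted p = 0.00778). The groups of Sgk1 did not overlap.

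Anxa1, a lipid-binding protein that mediates anti-inflammatory effects of glucocorticoids, rose by 1.14 ± 0.285 (adjusted p = 0.0120), and the transcription factor gene Cebpd by 1.10 ± 0.251 (adjusted p = 0.00686). Dusp1, a phosphatase that switches off MAP kinases, had 17.89, 16.74, 17.93 and 17.87 in the methyl parathion rats, against 16.74, 16.30, 15.88 and 17.11 in the vehicle rats. Methyl parathion rats 1, 3 and 4 stood close together above all vehicle rats, and rat 2 lay among the vehicle rats (1.10 ± 0.311, adjusted p = 0.0225). A pair of well known targets did not pass, Fkbp5 with 1.05 and Tsc22d3 with 0.38 ± 0.207 (adjusted p = 0.245). With methyl parathion rat 1 left out, 2 of the 14 genes rose, and with rat 2 left out 7 rose and 1 fell.

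**Figure D2:**
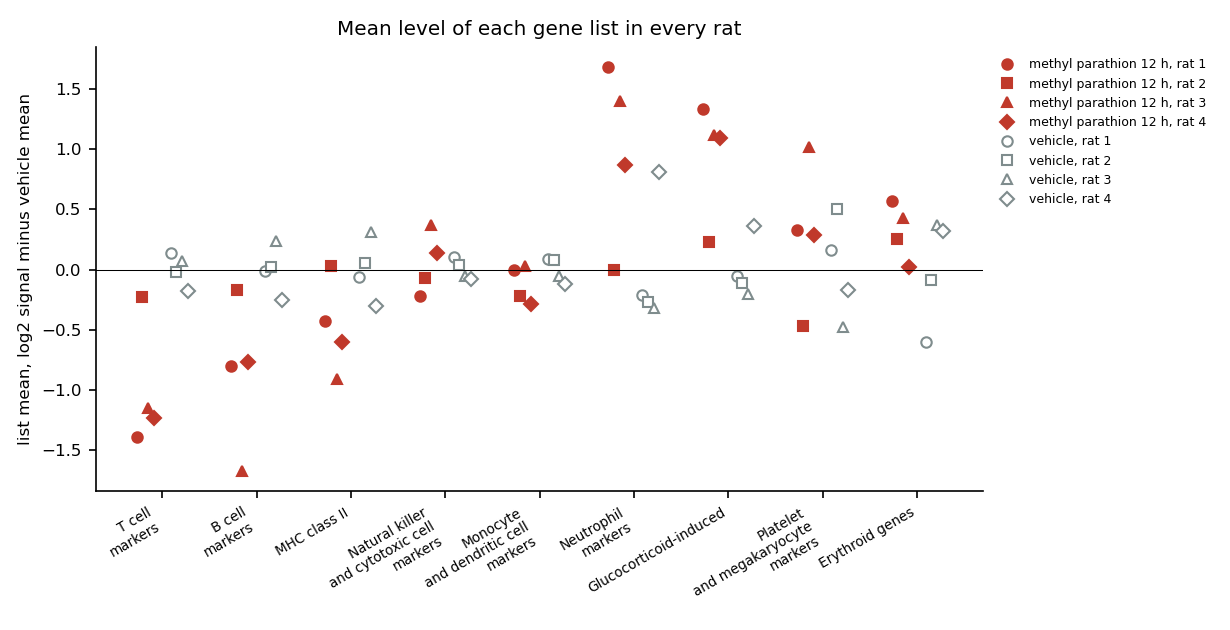
Mean log2 signal of the tested members of 9 gene lists in each rat, minus the mean of the 4 vehicle rats; filled red symbols are methyl parathion rats at 12 h, open grey symbols vehicle rats, and the shape gives the rat number. Methyl parathion rats 1, 3 and 4 lie at -1.39, -1.15 and -1.23 for T cell markers and at 1.33, 1.12 and 1.09 for glucocorticoid-induced genes, and rat 2 lies at -0.23 and 0.23.

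Monocyte and dendritic cell markers gave calls both ways, 2 of 10 higher (20.0%) and 1 lower (10.0%), with a median of -0.25. Of all named genes 5.03% were higher and 6.74% lower. Without methyl parathion rat 2, 2 of the 10 rose and 4 fell. With any of methyl parathion rats 1, 3 and 4 or vehicle rats 1 and 2 left out, 1 rose and none fell. Cd14, the co-receptor for bacterial lipopolysaccharide, had log2 signals of 13.86, 11.90, 14.15 and 13.57 in the methyl parathion rats, against 12.00, 11.78, 11.84 and 11.44 in the vehicle rats. Rat 2 lay among the vehicle rats, and the gene was 3.04-fold higher (1.61 ± 0.312, adjusted p = 0.00245). The inhibitory Fc receptor Fcgr2b rose by 0.72 ± 0.233 (adjusted p = 0.0459). Adgre1, an adhesion receptor used as a macrophage marker, fell by 0.98 ± 0.284 (adjusted p = 0.0248), and the related receptor Adgre4 by 1.70 ± 0.401 (adjusted p = 0.00829). The C-type lectin Clec10a was higher in all 4 methyl parathion rats (2.12 ± 0.609, adjusted p = 0.0242) and above background in 2 of 4 vehicle rats. Adgre4 and Clec10a are not on the list and were named because they passed with large changes and no overlap.

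Natural killer and cytotoxic cell markers gave 1 call in each direction among 19, with a median of 0.10. That was 5.26% each way, near the 5.03% higher and 6.74% lower of all named genes. Klrk1, the activating receptor NKG2D, fell by 0.77 ± 0.235 (adjusted p = 0.0326), and the adaptor Tyrobp, which myeloid cells also carry, rose by 0.68 ± 0.193 (adjusted p = 0.0231). The granzyme genes Gzma and Gzmb, of the cytotoxic granules, stood at 0.03 and 0.05 without passing. Of 9 eosinophil, basophil and mast cell markers 1 fell (11.1%), Hdc, which makes histamine. It had log2 signals of 6.94, 10.35, 9.21 and 10.38 in the methyl parathion rats, against 11.55, 11.76, 9.88 and 12.22 in the vehicle rats. Vehicle rat 3 lay among the methyl parathion rats (-2.13 ± 0.639, adjusted p = 0.0312).

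Markers of cells other than leukocytes were read as a check on the samples. None of 8 platelet genes passed by limma, and their list mean was 11.28 to 12.77 in the methyl parathion rats and 11.27 to 12.25 in the vehicle rats. Of 12 erythroid genes 1 rose (8.33%, against 5.03% of all named genes), Gata1, the transcription factor of erythroid and megakaryocytic cells. Gata1 was higher in all methyl parathion rats (1.08 ± 0.294, adjusted p = 0.0178). The erythroid list mean was 14.54 to 15.10 in the methyl parathion rats and 13.92 to 14.90 in the vehicle rats. Of 28 hepatocyte genes on the array 9 were tested and 2 rose (22.2%), Hp and the transferrin gene Tf (0.84 ± 0.210, adjusted p = 0.0121).

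Interferon-stimulated genes split, with 2 of 23 higher (8.7%), 4 lower (17.4%) and a median of -0.21. Of all named genes 5.03% were higher and 6.74% lower. Without methyl parathion rat 2, 3 of the 23 rose and 7 fell, and without vehicle rat 4 it was 4 each way. With methyl parathion rat 1 left out 2 rose and 1 fell, and with rat 3 or 4 left out it was 2 each way. Irf1, a transcription factor induced by interferon gamma, had log2 signals of 13.24, 14.13, 13.59 and 13.49 in the methyl parathion rats, against 14.25, 14.48, 14.33 and 14.93 in the vehicle rats. It was lower in all 4 methyl parathion rats, 1.85-fold on average (-0.89 ± 0.197, adjusted p = 0.00619). Gbp2, a GTPase that restricts intracellular pathogens, was also lower in all 4 (-1.05 ± 0.274, adjusted p = 0.0141). The antiviral genes Bst2 and Mx1 fell by 1.33 ± 0.327 (adjusted p = 0.0104) and 1.13 ± 0.324 (adjusted p = 0.0240), with methyl parathion rat 2 among the vehicle rats for both. Oas1k and Oas1a, of the family of oligoadenylate synthetases that sense viral RNA, rose by 1.34 ± 0.277 (adjusted p = 0.00379) and 1.08 ± 0.236 (adjusted p = 0.00569). For Oas1a the highest vehicle rat, rat 4, was at 15.62, against 14.34 to 14.54 in the other vehicle rats. These 2 genes are close paralogues, so that their probes may share signal.

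The list of inflammatory cytokines and NF-kB targets had 13 tested members, of which 2 rose (15.4%, against 5.03% of all named genes). These were Il1b, the gene of the fever-inducing cytokine interleukin 1 beta (0.94 ± 0.292, adjusted p = 0.0364), and Il1rap, the accessory chain of its receptor (1.15 ± 0.369, adjusted p = 0.0432). No gene of the list passed with methyl parathion rat 1, 3 or 4 or vehicle rat 1, 2 or 3 left out, and 4 rose without vehicle rat 4, while 4 rose and 1 fell without methyl parathion rat 2. Of 17 immediate early genes, which respond within minutes to stimulation, Dusp1 and Klf10 rose (11.8%) and Myc fell (5.88%, against 6.74% of all named genes). Without methyl parathion rat 2, 5 of the 17 rose and 4 fell. None of them passed with methyl parathion rat 1 or 4 left out, and 1 passed with methyl parathion rat 3 or vehicle rat 1, 2 or 3 left out. Myc, which drives growth, was lower in all 4 methyl parathion rats at 12.56, 13.18, 12.64 and 12.71, against 13.60, 13.56, 13.43 and 13.28 in the vehicle rats (-0.70 ± 0.182, adjusted p = 0.0146). Nr4a1, an orphan nuclear receptor induced by T cell receptor signalling, missed the threshold (-0.65 ± 0.217, adjusted p = 0.0526).

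In metabolism calls went both ways. The 28 genes of hypoxia and glycolysis gave 5 rises (17.9%) and 3 falls (10.7%), against 5.03% and 6.74% of all named genes, with a median of 0.03. The lactate exporter gene Slc16a3 had 13.09, 11.58, 12.61 and 12.56 in the methyl parathion rats, against 11.03, 11.06, 11.18 and 11.76 in the vehicle rats, and rose by 1.20 ± 0.208 (adjusted p = 0.00171). Only methyl parathion rat 2 overlapped the vehicle rats. Hk3, the hexokinase of myeloid cells, Pkm, Tpi1 and Gapdh rose as well, by 0.59 to 1.61, while Ldhb, Eno3 and Pfkp fell, by 0.55 to 1.21. Of 26 lipid and cholesterol genes 4 rose (15.4%) and 1 fell (3.85%). Dgat1 and Dgat2, which make the last step of triglyceride synthesis, rose by 1.01 ± 0.201 (adjusted p = 0.00290) and 1.73 ± 0.389 (adjusted p = 0.00653). The fatty acid binding protein gene Fabp5 and the lipid droplet coat gene Plin2 rose by 1.09 ± 0.291 and 0.78 ± 0.216, and the desaturase gene Scd2 fell by 0.76 ± 0.200.

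Of 37 ribosomal protein genes 4 fell (10.8%, against 6.74% of all named genes) and none rose, with a median of -0.31. Without methyl parathion rat 2 it was 17 that fell, without vehicle rat 4 it was 13, and without any other of the 8 rats 1 or 2. The list mean was 18.60 to 19.00 in the methyl parathion rats and 18.88 to 19.19 in the vehicle rats. Relative to all probes the ribosomal median was -0.23, but 0.05 under median centring, so that this direction depends on the scaling. Rpl3 fell most among those called (-0.71 ± 0.158, adjusted p = 0.00622). Of 19 heat shock and chaperone genes 3 fell (15.8%), Tcp1, a subunit of the chaperonin that folds actin and tubulin (-0.97 ± 0.246), Bag3 (-0.62 ± 0.165) and Stip1 (-0.55 ± 0.182). Of 27 proteasome genes Psmb2 and Psma2 fell (7.41%, near the background), by 0.66 ± 0.168 and 0.50 ± 0.160. None of 38 oxidative phosphorylation genes passed by limma (median -0.09).

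Genes of stress and cell death were called in both directions, against 5.03% higher and 6.74% lower of all named genes. The endoplasmic reticulum stress list had 10.0% higher and 5.0% lower, and the Nrf2 list 9.09% each way. The apoptosis list had 4.0% higher and 12.0% lower, and the cell cycle list 4.35% higher. Of 20 endoplasmic reticulum stress genes 2 rose, Ppp1r15a, which restores translation after stress (1.11 ± 0.241, adjusted p = 0.00531), and Ddit3, which encodes the transcription factor CHOP (0.80 ± 0.187, adjusted p = 0.00777), and the disulphide isomerase gene Pdia3 fell (-0.56 ± 0.150, adjusted p = 0.0159). Of 22 Nrf2 and oxidative stress genes, Nqo1, a quinone reductase (0.87 ± 0.208, adjusted p = 0.00918), and Taldo1 rose, and Ugdh and Gstm1 fell. Hmox1, haem oxygenase 1, had 12.61, 12.46, 12.48 and 12.24 in the methyl parathion rats, against 11.76, 11.96, 12.51 and 12.94 in the vehicle rats, and the groups overlapped (0.16 ± 0.265, adjusted p = 0.743). Of 25 apoptosis genes Gadd45a rose (0.89 ± 0.242, adjusted p = 0.0173), and 3 caspase genes fell. These were Casp4 (-0.73 ± 0.188), Casp1 (-0.76 ± 0.240) and Casp2 (-0.47 ± 0.150), and a second Casp4 probe at -0.60 had an adjusted p of 0.0865. Of 23 cell cycle genes Tacc3, a spindle protein, rose in all 4 rats (0.70 ± 0.132, adjusted p = 0.00215), and no other passed.

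**Figure D3:**
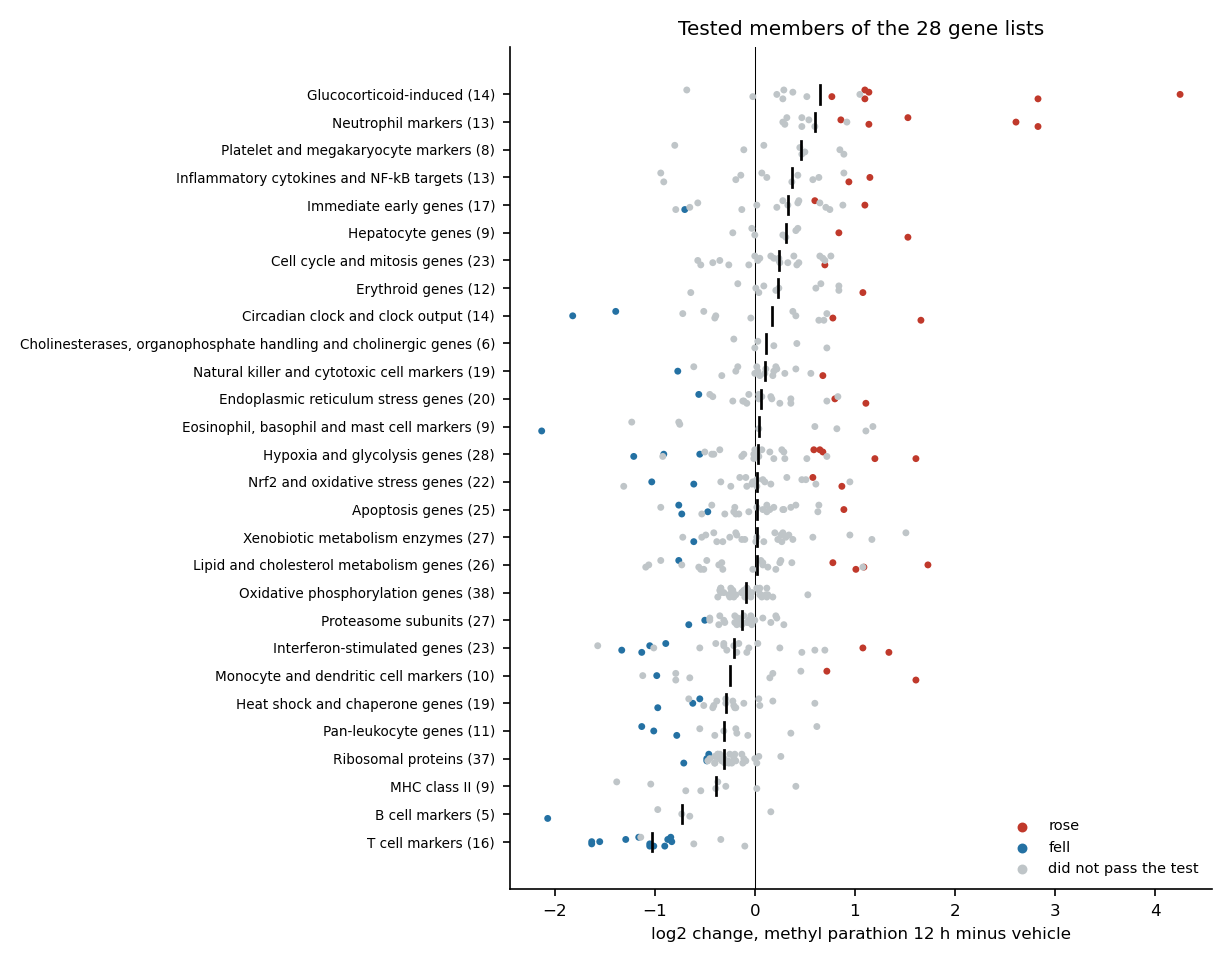
Log2 change, methyl parathion at 12 h minus vehicle, of every tested member of the 28 gene lists, with the number tested in brackets; red points rose, blue points fell, grey points did not pass the test, and black bars mark list medians. T cell markers lie at the bottom with a median of -1.03, and glucocorticoid-induced genes and neutrophil markers at the top with medians of 0.65 and 0.60.

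The targets and detoxifiers of organophosphates were mostly below background in leukocytes. Of 31 genes of cholinesterases, organophosphate handling and cholinergic signalling on the array, 6 were tested and none passed by limma. Ache, acetylcholinesterase, was above background in 0 of 4 methyl parathion rats and 2 of 4 vehicle rats and was therefore not tested, with log2 signals of 7.49 to 7.90 and 8.25 to 8.73. Bche, butyrylcholinesterase of plasma, was above background in none of the 8 rats. The carboxylesterase genes Ces1c, Ces1d, Ces1e, Ces2a, Ces2c and Ces5a were not tested either. The paraoxonase genes, whose enzymes hydrolyse organophosphate oxons, stood at 0.19 ± 0.508 (Pon1, adjusted p = 0.852) and 0.72 ± 0.323 (Pon3, adjusted p = 0.156). Of 27 xenobiotic enzymes tested, of 85 on the array, only Gstm1 passed (-0.61 ± 0.175, adjusted p = 0.0240).

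Clock genes set the hour of gene activity in most cells, and the hour of killing differed between these groups. Of 14 tested, 2 rose and 2 fell (14.3% each, against 5.03% and 6.74% of all named genes). Per3, a period gene that falls and rises over the day, had log2 signals of 7.40, 7.15, 6.94 and 6.44 in the methyl parathion rats, against 9.16, 9.34, 8.59 and 8.11 in the vehicle rats. All 4 methyl parathion rats, rat 2 included, were below all vehicle rats and below background. The gene was lower by an estimated 3.48-fold (adjusted p = 0.0151), a size that these arrays did not measure. Nr1d2, the repressor REV-ERB beta, was lower in all 4 rats too, at 8.41, 8.56, 9.38 and 6.89, against 10.09, 9.59, 9.67 and 9.46 (-1.39 ± 0.392, adjusted p = 0.0219). Only 1 of the 4 methyl parathion arrays had Nr1d2 above background. Usp2, a deubiquitinase whose transcript follows the clock, had 11.89, 10.31, 11.66 and 11.47, against 10.04, 9.55, 8.93 and 10.17, and was 3.16-fold higher without overlap (1.66 ± 0.390, adjusted p = 0.00814). Nfil3 rose by 0.78 ± 0.248 (adjusted p = 0.0425).

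Other core clock genes did not pass. The log2 difference of Per2 was 0.69 ± 0.295 (adjusted p = 0.130), that of Cry1 -0.39 ± 0.176 (adjusted p = 0.157), that of Cry2 -0.72 ± 0.452 (adjusted p = 0.327), that of Bmal1 -0.51 ± 0.527 (adjusted p = 0.568), that of Nr1d1 0.64 ± 0.421 (adjusted p = 0.354) and that of Dbp -0.04 ± 0.187 (adjusted p = 0.925). Bhlhe40, Csnk1d and Csnk1e stood at -0.40, 0.72 and 0.41 without passing, and Clock, Bhlhe41, Tef and Timeless were not tested. At 24 h after methyl parathion, when rats and vehicle rats were killed at the same interval, Per3 stood at 0.25 (adjusted p = 0.837) and Usp2 at 0.41 (adjusted p = 0.621). None of the 14 clock genes passed at 24 h. Compared directly, Per3 was the only clock gene called at 12 h that also differed between 12 h and 24 h. The part of the hour of killing was not tested. At 12 h after acetaminophen, with the same mismatch of the hour, Nr1d2 stood at -1.57 (adjusted p = 0.00144), Usp2 at 2.74 (adjusted p = 7.47e-07) and Nfil3 at 1.94 (adjusted p = 1.41e-07). Per2 was higher (adjusted p = 1.4e-06) and Per3 lower, with no acetaminophen array above background (adjusted p = 0.00471). The changes of Nfil3 and Per2 differed between the chemicals, by -1.17 (adjusted p = 0.0249) and -1.31 (adjusted p = 0.0345). Under median centring 0 of the 14 clock genes differed, so that these calls depend on the scaling. Of the 4 clock genes that passed at 12 h, none held the E-box CACGTG or the D-box TTANGTAA in its promoter window, against 6.42% and 2.24% of all windows.

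The largest changes among named genes whose groups did not overlap reached beyond these lists. Dnase2b, an acid DNase, had log2 signals of 7.17, 9.41, 6.4 and 8.95 in the methyl parathion rats, against 10.80, 11.60, 10.03 and 11.30 in the vehicle rats. It was lower in all 4 and above background in 2 of them (-2.95 ± 0.609, adjusted p = 0.00372). The value of methyl parathion rat 3 is the level to which fainter signals were set (log2 6.404), so that the size is uncertain. St14, which encodes the membrane protease matriptase, had 10.21, 9.57, 11.44 and 10.45 in the methyl parathion rats, against 9.26, 8.61, 7.86 and 7.97 in the vehicle rats, and rose 3.97-fold without overlap (1.99 ± 0.337, adjusted p = 0.00160). Lmna, the nuclear lamin A/C gene, had 14.61, 13.07, 13.82 and 14.04, against 11.72, 12.49, 12.65 and 12.84, again without overlap (1.46 ± 0.260, adjusted p = 0.00171).

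The other large rises were Ly6i (1.83), the G protein subunit gene Gng8 (1.73), Bco1, which cleaves beta-carotene to retinal (1.51), Mefv, the pyrin gene of the inflammasome (1.25), the tetraspanin gene Tspan8 (1.23), Ddah1 (1.23), the lactate dehydrogenase gene Ldhc (1.17), the metalloprotease gene Adam15 (1.15), Ubxn11 (1.11) and Padi4, a histone citrullinase of neutrophils (1.11). Kif1b, a kinesin, was above background in no vehicle rat and was higher by an estimated 3.27-fold (adjusted p = 0.0266), so that the size is uncertain. Mefv was at 10.65, 11.36, 10.78 and 10.80, against 9.49 to 9.81, so that rat 2, near the vehicle rats in most lists, was the highest methyl parathion rat here (adjusted p = 0.0105). Further large falls had no methyl parathion array above background, and their folds are likewise estimates of uncertain size. Gabbr1, a GABA receptor subunit, was lower by an estimated 3.75-fold (adjusted p = 0.0122), Camk2d by 3.79-fold (adjusted p = 0.0272) and Wipf3 by 3.45-fold (adjusted p = 0.0168). For Prrc2a the estimate was 3.10-fold (adjusted p = 0.00374), and for the transcription factor gene Atf2 it was 3.05-fold (adjusted p = 0.0490). Add3, an adducin of the membrane skeleton, and Sv2b fell by 1.56 ± 0.384 (adjusted p = 0.0104) and 1.70 ± 0.522 (adjusted p = 0.0343).

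The change 12 h after methyl parathion was then set against that 12 h after acetaminophen, each with vehicle rats of its own, so that the 2 comparisons share no array. They share the mismatch of the hour of killing. Of 409 probes higher after methyl parathion and tested in both, 315 were also higher after acetaminophen (77.0% of the methyl parathion probes and 18.8% of the 1678 acetaminophen probes), while 16.2% of all probes were higher after acetaminophen. Of 657 lower probes, 429 were also lower (65.3%, and 16.2% of the 2651 acetaminophen probes), against 25.6% of all probes. Of the higher and lower probes, 2 and 7 were called in the opposite direction. Over the 409 higher probes the median change was 0.87 after methyl parathion and 1.28 after acetaminophen, and over the 657 lower probes -0.78 and -0.74.

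Tested directly, the 2 changes differed in 1517 of 11930 probes (12.7%), 717 higher (6.01%) and 800 lower (6.71%) after methyl parathion, or 16 and 440 under median centring (3.5% of the calls higher, against 47.3%). It was 1011 probes without acetaminophen vehicle rat 4. Of the 1087 probes called after methyl parathion, 231 were among them. Neutrophil markers were raised less by methyl parathion: 7 of 13 had a lower change, or 6 under median centring, and none a higher one. Cxcr2 averaged 11.86 ± 0.766 after methyl parathion and 11.57 ± 0.363 in its vehicle rats, and 15.08 ± 0.116 after acetaminophen and 11.20 ± 0.521 in its vehicle rats (SD, n = 4 each). Its change was thus within the spread of the rats after methyl parathion and far beyond it after acetaminophen, a difference of -3.60 ± 0.651 (adjusted p = 0.000539). Socs3, the feedback inhibitor of cytokine signalling, and Gk, glycerol kinase, differed likewise by -3.64 ± 0.573 and -3.48 ± 0.547 (adjusted p = 0.000138 for both). Tgm1, Alpl and Atf2 also passed (adjusted p = 0.000733, 0.00102 and 0.00533), but each was above background on no array of 1 group, so that the size was not measured. That group was the vehicle rats of acetaminophen for Tgm1 and Alpl and the methyl parathion rats for Atf2.

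The T cell list fell after both chemicals. After acetaminophen all 16 markers fell with a median of -1.67, and 4 of them were less reduced by methyl parathion, or 0 of 16 under median centring. The difference for Cd8a was 0.16 (adjusted p = 0.755) and for Ccr7 0.30 (adjusted p = 0.707). Of 38 oxidative phosphorylation genes 17, and of 37 ribosomal protein genes 14, had a higher change after methyl parathion and none a lower one, but under median centring 0 of 38 and 1 of 37 did. Of 23 interferon-stimulated genes 9 had a lower change after methyl parathion, or 7 under median centring. Irf1 averaged 13.61 ± 0.373 after methyl parathion and 14.50 ± 0.304 in its vehicle rats, and 14.65 ± 0.119 after acetaminophen and 14.44 ± 0.0832 in its vehicle rats. The difference was -1.10 ± 0.278 (adjusted p = 0.00779).

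Of 11 pan-leukocyte genes 4 had a lower change after methyl parathion, or 2 under median centring. Cd53 averaged 17.11 ± 0.193 after methyl parathion and 17.89 ± 0.171 in its vehicle rats, and 18.43 ± 0.164 after acetaminophen and 17.84 ± 0.0661 in its vehicle rats. It was thus lower than vehicle after methyl parathion and higher after acetaminophen, with a difference of -1.37 ± 0.248 (adjusted p = 0.000539). Ptprc differed by -1.75 ± 0.476 (adjusted p = 0.0133). In the other direction, Hpgds, which makes prostaglandin D2 in mast cells and some T cells, averaged 12.87 ± 0.569 after methyl parathion and 11.70 ± 0.237 in its vehicle rats, and 10.15 ± 0.175 after acetaminophen and 11.98 ± 0.174 in its vehicle rats. The difference was 3.00 ± 0.554 (adjusted p = 0.000622), although its change after methyl parathion alone missed the threshold (1.18 ± 0.392, adjusted p = 0.0513). St14 differed by 2.03 ± 0.478 (adjusted p = 0.00514), with a change of -0.04 after acetaminophen. Tgm2, Sag and Mtfp1 also had a higher change after methyl parathion, by 2.21, 1.88 and 1.87, and Dnph1 passed with no acetaminophen array above background (adjusted p = 0.0213).

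**Figure D4:**
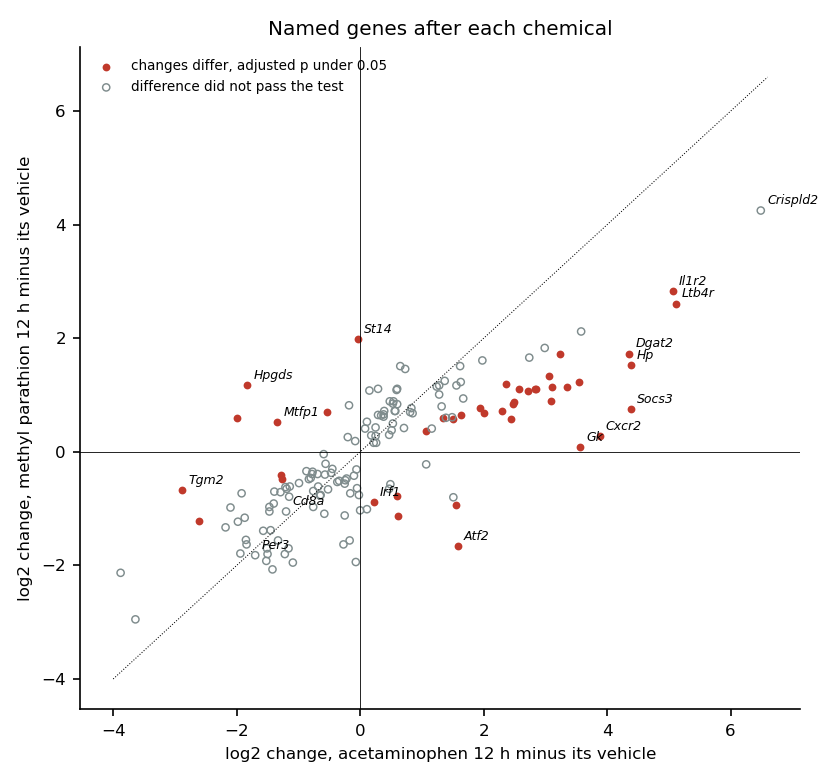
Log2 change of each named gene at 12 h after methyl parathion (vertical axis) against that after acetaminophen (horizontal axis), each minus its own vehicle rats; filled red points differed between the chemicals at an adjusted p under 0.05, open grey circles did not pass, and the dotted line marks equal changes. Cxcr2, Socs3 and Gk lie far to the right with changes of 0.28, 0.75 and 0.08 after methyl parathion, and St14 lies on the vertical axis at 1.99.

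The 12 h group was also set against its neighbours in time. Against the same vehicle rats, 0 of 11640 probes passed at 4 h by limma, with 1343 at an unadjusted p under 0.05, and 345 of 11321 passed at 24 h (3.05%), 105 higher (0.927%) and 240 lower (2.12%). No T cell marker passed at 4 or 24 h, where the list medians were -0.24 and -0.41. Compared directly, the rats at 12 h differed from those at 4 h in 204 of 10961 probes (1.86%), 75 higher (0.684%) and 129 lower (1.18%), and from those at 24 h in 122 of 10262 (1.19%), 81 higher (0.789%) and 41 lower (0.400%). These counts rest on single rats: leaving out 1 rat gave 1 to 1277 calls against 4 h and 0 to 1230 against 24 h. The lowest counts came without methyl parathion rat 1 or 3 at 12 h or rat 1 or 3 at 4 h, and without rat 3 at 24 h. The highest came without rat 2 at 12 h and without rat 1 at 24 h.

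Of the named genes that passed at 12 h, 16 of 90 tested differed from 4 h, among them Ltb4r, Cd8b, Dusp1, Bst2, Il2ra, Per3 and Nr1d2. By contrast, 4 of 87 differed from 24 h, namely Il2ra, Per3, Prrc2a and Stip1. These genes had been chosen on the same 12 h arrays, so that their direction in these comparisons is no separate evidence. Per3, Il2ra and Prrc2a had no 12 h array above background, and the sizes of their differences are therefore not given. For Per3 the adjusted p was 0.0481 against 4 h and 0.0358 against 24 h. Cd8a averaged 15.02, 14.57, 15.16 and 15.16 at 4, 12, 24 and 168 h, against 15.62 in the vehicle rats. Its 12 h mean was the lowest, but the differences from 4 h (adjusted p = 0.121) and from 24 h (adjusted p = 0.0673) missed the threshold. Il1r2 averaged 13.99, 15.72, 13.89 and 13.45 at the 4 times, against 12.89 in the vehicle rats, and likewise missed it against 4 h (adjusted p = 0.0617) and 24 h (adjusted p = 0.0672).

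**Figure D5:**
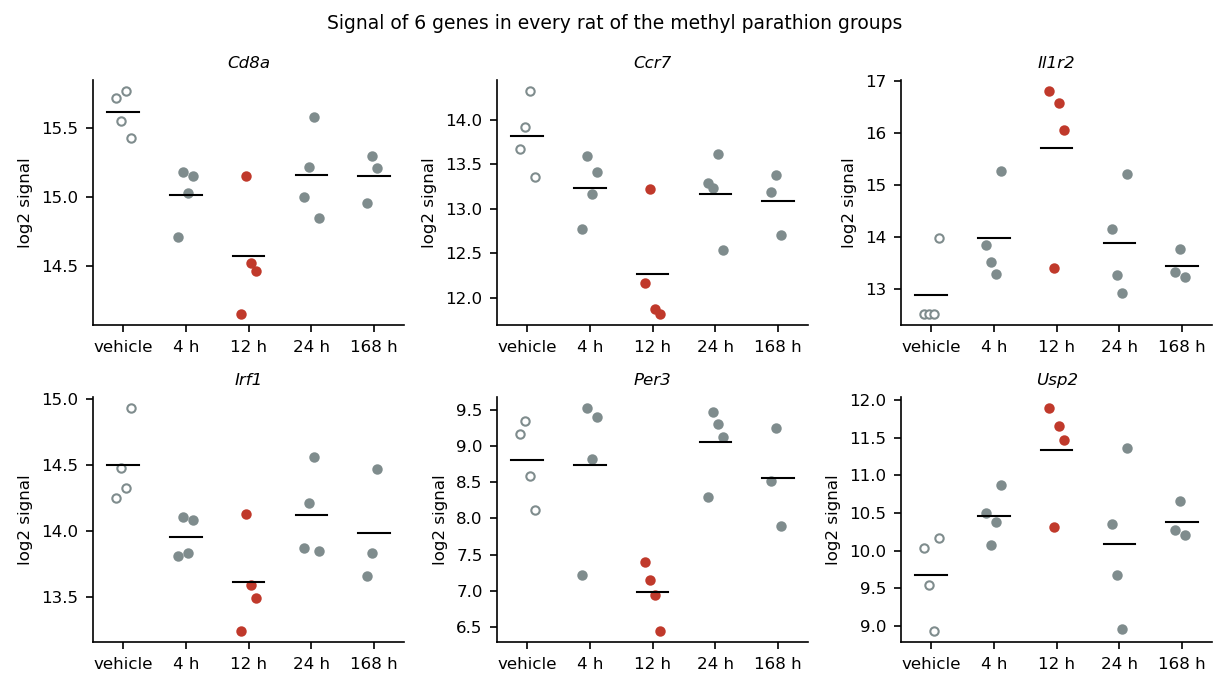
Log2 signal of 6 genes in every rat of the methyl parathion groups, from vehicle on the left to 168 h on the right; red points are the rats at 12 h, grey points the other groups, open circles the vehicle rats, and black bars the group means. Per3 lies at 6.44 to 7.40 in the 12 h rats, and for Cd8a, Ccr7, Il1r2, Irf1 and Usp2 rat 2 at 12 h lies apart from the other 3 rats, nearer the vehicle rats.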

How the data were processed

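RNA of blood leukocytes was hybridised to Applied Biosystems rat arrays read in a single channel by chemiluminescence, 1 array per rat. Per the labels' protocols, leukocyte RNA was depleted of globin mRNA and labelled as digoxygenin cRNA. The authors deposited for each array a signal, a linear intensity from which background had been subtracted, a signal-to-noise score from the scanner for every probe, and quality flags, whole numbers of another kind. Values in their deposited series table are log2, and matched intensities quantile-normalized over 38 arrays and then logged to within 6.8e-05. Scan dates, slides and the array's genome build are not given in the sources used here, so that no batch was tested. Array signals count no molecules, and the number of rats limits the precision. Nothing beyond the replicate labels says how rats were housed or bled together.

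From that table, values of 26857 gene probes below the 5th percentile were set to it (log2 6.404, a signal of 84.7), and 0.96% of values, from spots flagged at 5000 or above, were treated as missing. A linear model of the 10 groups was fitted in limma (version 3.58.1, R 4.3.3), with the prior variance as a trend on mean signal and with 28 residual degrees of freedom and 6.06 from the prior. A probe entered a test if at least 3 arrays of a group compared had a signal-to-noise ratio of 3 or more. Tests were two-sided, with Benjamini-Hochberg adjustment over all probes tested and a threshold of 0.05. On simulated data, changes of 1 and 2 on the log2 scale put into 100 probes each of 11405 were recovered in 56% and 92% of cases, with 2 false calls. The simulated noise was independent between probes and arrays, with the same spread in every group. It held no differences between whole arrays and no rat that stood apart, so that these rates do not carry over to the real arrays. Probes had exactly 1 gene symbol in 6104 cases, several in 70 and none in 20683, from the platform annotation, and symbols were updated through Entrez IDs (6081), accessions (7) or kept (16). A gene with several probes is given by the one with the highest mean signal. Genes named for the largest rises or falls are the exception. They are given by the probe with the largest change among those that passed without overlap. Of 46 genes with several tested probes, 0 had probes called both ways. For a probe with no array of 1 group above background, the fold is an estimate. It is taken against the higher of the probe's own signal and the lowest signal among probes above background on each array. A signal not above background does not measure the gene, so that the estimate is no strict lower bound.

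The comparison, the rule for naming genes and the 28 gene lists were chosen with earlier results of these data known. The rule took, per direction, the 15 largest changes among named probes that passed with groups that did not overlap, up to 4 members of each list by p and the largest contrary one, in each direction the 6 largest differences between the chemicals, and always the cholinesterase, carboxylesterase, paraoxonase and clock genes and Hmox1. Other genes are named as members of a list. Promoter sequences are from RefSeq. Figures were drawn with matplotlib 3.10.9. Alternatives were median centring, no or stricter background filters, no floor, flagged spots kept, no trend, array weights, a replicate block, other vehicle rats, the 8 arrays alone and each rat left out. A filter on probes above background on every array compared was added after seeing the data. Rats of the same number did not deviate together (r = -0.234 to -0.066 over probes), and rats were not treated as paired. These correlations cannot show whether rats of the same number were handled together.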

Additional observations from a re-analysis of the deposited data

Results flagged for a closer look

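Single rats stood apart from the other 3 of their group in 19 of 334 groups of named genes and 3 of 56 list means, by a gap beyond Dixon's critical share of the group's range. Chance alone gives about 1 in 20. Methyl parathion rat 2 was the one apart in 6 genes, of which Dusp1 (gap 0.948 of the range) and Chrnb2 (0.860) were on the low side and Il2ra (0.876), S1pr1 (0.873), RT1-Bb (0.945) and RT1-Da (0.898) on the high side. Methyl parathion rat 1 was apart in Birc5 (0.854, high), RT1-DMa (0.877, low) and the mean of the endoplasmic reticulum stress list (0.841, 12.24 against 11.85 to 11.91). Vehicle rat 4 was apart on the high side in Il1r2 (0.990), Dgat2 (0.921), Mmp9 (0.903), Dgat1 (0.894), Oas1a (0.845), Tspan8 (0.845) and the mean of the neutrophil list (0.903, 13.81 against 12.67 to 12.78), and on the low side in Acot2 (0.835). Vehicle rat 3 was apart in RT1-DMa (0.930, high), Fcer1a (0.923, low), Ccl5 (0.895, low) and the mean of the xenobiotic list (0.906, 10.58 against 10.67 to 10.68), and vehicle rat 1 in Dpp4 (0.839, high). Il1r2, for instance, had a log2 signal of 13.99 in vehicle rat 4 and of 12.52 to 12.53 in the other vehicle rats.

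The change at 12 h after methyl parathion less that after acetaminophen passed the test, by limma's adjusted p, in 45 named genes. Besides those of the report, the neutrophil and myeloid genes Hp, Ltb4r, Il1r2, Mmp9 and Fcgr2b had differences of -2.86, -2.50, -2.23, -1.96 and -1.57, and the receptors Tlr4 and Tlr2, which sense microbial products, of -2.49 and -1.87. For Dgat2, Ddah1, Gadd45a, Il1rap, Cebpd and Dusp1 they were -2.63, -2.32, -2.20, -2.20, -1.75 and -1.74. For Oas1k, Oas1a, Nqo1, Tf, Gng8, Padi4, Per2, Nfil3 and Slc16a3 they were -1.72, -1.64, -1.64, -1.64, -1.51, -1.47, -1.31, -1.17 and -1.16, and for Tpi1, Taldo1, Klf10 and Vav1 -0.99, -0.93, -0.75 and -0.70. Higher after methyl parathion were Eno3 (1.40), Cdc20 (1.24), Hspe1 (0.87) and Rpl27 (0.79). Many of these calls depend on the scaling: under median centring 16 probes had a higher change, in place of 717. In that setting 0 of 28 hypoxia and glycolysis genes, 0 of 23 cell cycle genes and 0 of 19 heat shock genes had a higher change. Of 37 ribosomal protein genes 1 did, and 0 of 14 clock genes, Per2 and Nfil3 among them, differed either way. The genes already described were Tgm1 (-4.41), Alpl (-3.71), Socs3 (-3.64), Cxcr2 (-3.60), Gk (-3.48), Atf2 (-3.24), Ptprc (-1.75), Cd53 (-1.37) and Irf1 (-1.10), and Hpgds (3.00), Dnph1 (2.60), Tgm2 (2.21), St14 (2.03), Sag (1.88) and Mtfp1 (1.87). Tlr4 and Atf2 were above background on no methyl parathion array, Tgm1 and Alpl on no acetaminophen vehicle array and Dnph1 on no acetaminophen array, so that the sizes given for these 5 are fitted values and not measured ones. What sets these genes apart was not tested.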

How the results depend on the processing

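The probes called for methyl parathion at 12 h against vehicle, 1087, became 357 with median centring, 657 without a background filter, 3903 with array weights, 0 with the 8 arrays alone, 2879 with vehicle rats of both chemicals, 3623 with the vehicle rats of acetaminophen and 279 at an adjusted p under 0.01. Those for the difference between the chemicals, 1517, became 456, 988 and 3143 with the first 3 of these settings. Against 4 h, 204 became 15, 33 and 2306, and 114 without a trend in the prior. Against 24 h, 122 became 25, 2 and 574. Between the vehicle groups, 0 became 1141 with array weights. Leaving out 1 rat gave 328 to 1954, 1011 to 1896, 1 to 1277, 0 to 1230 and 0 to 2 in the same order. With the replicate block there were 1117 calls at 12 h (431 higher, 686 lower), and none of the 93 named genes called was lost, while 4 others passed. Whether rats of the same number were handled together is not known.

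Of the 93 named genes called, 46 lost the call with median centring, 24 without a background filter, 9 without a trend, 30 to 52 without 1 of methyl parathion rats 1, 3 and 4 or of vehicle rats 1 to 3, 1 without methyl parathion rat 2 and 4 without vehicle rat 4. None lost it without a floor, with flagged spots kept, with array weights or with vehicle rats of both chemicals, and 1 with those of acetaminophen. All 93 lost it with the 8 arrays alone. No named gene changed direction past the threshold. Among probes above background on all 8 arrays, 1031 of 8235 were called. The cause of these shifts was not tested. Signals near background limit the faint genes, such as Per3, Il2ra and Ache, and the hour of killing cannot be told apart from the treatment.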

Other observations

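Of the labelling-kit control spots, 15 per array, the median log2 signal above the array's median was 8.22 to 9.09 in the methyl parathion rats. It was 7.76 to 8.75 in the vehicle rats, so that the groups overlapped. Other genes with a value but no call included Il18, a cytokine of monocytes (0.89 ± 0.295, adjusted p = 0.0515), Klf4, a transcription factor of monocytes (-0.79 ± 0.270, adjusted p = 0.0584), and Vav1, a signalling protein of blood cells (0.36 ± 0.122, adjusted p = 0.0536).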
